A study of Arabidopsis thaliana with 11 samples.

Results

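The LECRKA4 genes and their relative AT3G08870, grouped with them here, make up clade VI of the L-type lectin receptor kinases of Arabidopsis thaliana. They were chosen by name, as every array probe whose RefSeq transcript maps to AT5G01540 (LECRKA4.1, also called LecRK-VI.2), AT5G01550 (LECRKA4.2, LecRK-VI.3), AT5G01560 (LECRKA4.3, LecRK-VI.4) or the related AT3G08870 (LecRK-VI.1). These are 4 of the 25433 loci with a probe on the array and 5 of its 43603 probes, since AT3G08870 has 2 probes. All 5 probes passed the filter on dim signals (above background by the scanner software's flag on 2 or more arrays). LECRKA4.1 drew attention through its level in psy1r against WT on these same arrays, and the other genes were added for their kinship. The values of that comparison are therefore a description with no test.

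RNA of whole seedlings of ecotype Columbia-0 was hybridised to one-colour Agilent arrays (cyanine 3), with 11 arrays in 4 groups. The groups were psy1r + PSY1 (2 arrays, replicates 1 and 3), psy1r (3 arrays), WT + PSY1 (3 arrays) and WT (3 arrays). The psy1r seedlings, with or without peptide, came from a single knockout line that lacks PSY1R, the leucine-rich repeat receptor kinase named for the peptide. All seedlings had grown for a week in shaken flasks of liquid Murashige and Skoog medium with sucrose under continuous light. The PSY1 groups then received 10 nM of the sulfated peptide PSY1 for 4 h. Cell types were not separated, so fewer cells of a type and less RNA per cell cannot be told apart.

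L-type lectin receptor kinases carry a legume lectin-like domain outside the cell, a membrane-spanning stretch and a kinase domain inside. In Arabidopsis, LECRKA4.1, LECRKA4.2 and LECRKA4.3 are known to act redundantly as brakes on abscisic acid (ABA) responses during seed germination. LECRKA4.1 is also known as a positive regulator of immunity triggered by microbial patterns, and it takes part in sensing extracellular pyridine nucleotides together with the co-receptor BAK1.

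Levels are given as log2 of the background-corrected signal relative to the 75th percentile of the same array, so that 0 is the signal of a probe at that percentile. The share of probes well above background ran from 72.3% to 81.8% by array, and no spot was saturated. In WT, replicates 1 and 2 differed by a median of 0.08 on the log2 scale, but by 0.29 and 0.30 from replicate 3. The psy1r group showed the same spacing (0.09 against 0.33 and 0.34), and the psy1r + PSY1 arrays differed by 0.33. WT + PSY1 did not show it, since every pair of its arrays differed by 0.08 to 0.10. PSY1R had signals of 9.67 and 52.97 units in psy1r + PSY1 and from 3.08 to 20.9 in psy1r. They ran from 553.7 to 720.5 in WT + PSY1 and from 415 to 715 in WT, which fits the groups named here. The titles of the psy1r + PSY1 arrays name psy1 instead of psy1r, so their genotype is taken from the study design. PSY1R was still well above background on psy1r replicate 2 and on psy1r + PSY1 replicate 3. The psy1r + PSY1 array of replicate 3 stood apart. Its 10 seed markers (storage proteins, oleosins and late embryogenesis proteins) averaged 0.42 and were all well above background, against averages from -6.78 to -4.90 on the other 10 arrays. The leaf markers (8 genes) averaged between 6.82 and 7.22 and the root markers (7 genes) between -2.73 and -1.26, with every one of them well above background on every array. The differences of the LECRKA4 genes that include the psy1r + PSY1 array of replicate 3 are given with and without it, for AT3G08870 only on the brighter of its 2 probes. The part of the seed markers in these differences was not tested.

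LECRKA4.1 showed the clearest separation of the groups. Its processed signal was 3635 and 2608 units in psy1r + PSY1, 3174, 3817 and 2897 in psy1r, 2071, 2524 and 2841 in WT + PSY1, and 961.4, 1193 and 1113 in WT. The WT arrays were the lowest in these units, while 1 psy1r + PSY1 array lay below the highest WT + PSY1 array. After scaling, all WT + PSY1 arrays (0.39, 0.37 and 0.50) lay above the WT arrays (-0.50, -0.48 and -0.47) and below both psy1r groups, which overlapped each other. On this relative log2 scale the means were 0.93 ± 0.099 in psy1r + PSY1 (SD, n = 2), 1.09 ± 0.18 in psy1r, 0.42 ± 0.067 in WT + PSY1 and -0.48 ± 0.013 in WT (SD, n = 3 each). The order of the groups, from low to high, was WT, WT + PSY1, psy1r + PSY1 and psy1r, and among neighbours in this order only the 2 highest groups overlapped.

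**Figure D1:**
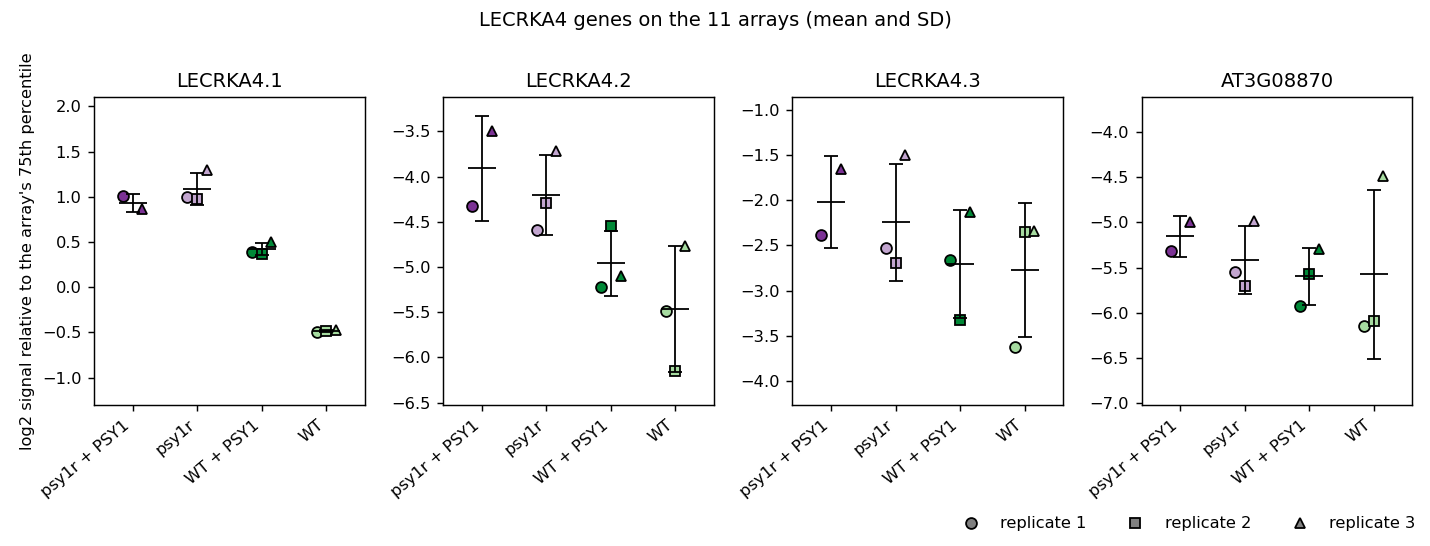
Relative log2 signal (y axis, log2 units against the 75th percentile of each array) of the 4 genes on the 11 arrays, by group, with symbols for replicates and bars for the mean ± SD. LECRKA4.1 separates WT, WT + PSY1 and both psy1r groups, whereas the arrays of LECRKA4.3 and AT3G08870 (brighter probe) overlap in every pair of groups.

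LECRKA4.2 and LECRKA4.3 follow LECRKA4.1 directly in the annotated order of chromosome 5. All 3 were well above background on every array. Whether their probes also bind transcripts of the related genes was not tested. The signal of LECRKA4.2 was 90.7 and 126.8 units in psy1r + PSY1, 65.97, 99.4 and 89.6 in psy1r, 42.4, 83.3 and 58.55 in WT + PSY1, and 30.3, 23.4 and 56.7 in WT. After scaling, every array of both psy1r groups except psy1r replicate 1 (-4.60) lay above all arrays of the WT groups, of which the highest was WT + PSY1 replicate 2 (-4.55). The means were -3.91 ± 0.58 in psy1r + PSY1 (SD, n = 2), -4.20 ± 0.44 in psy1r, -4.96 ± 0.36 in WT + PSY1 and -5.47 ± 0.69 in WT (SD, n = 3 each). Neighbours in this order overlapped.

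LECRKA4.3, the last gene of the tandem array, had 348.3 and 453.5 units in psy1r + PSY1, 276.2, 300.5 and 416.9 in psy1r, 250.1, 194.9 and 461.6 in WT + PSY1, and 110, 327.3 and 303.6 in WT. The groups overlapped throughout, and the means were -2.02 ± 0.51 in psy1r + PSY1 (SD, n = 2), -2.24 ± 0.65 in psy1r, -2.70 ± 0.60 in WT + PSY1 and -2.77 ± 0.74 in WT (SD, n = 3 each).

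AT3G08870 encodes the remaining kinase of the clade and lies on chromosome 3. The brighter of its probes, well above background on every array, had 45.5 and 44.9 units in psy1r + PSY1, 34.0, 37.3 and 37.1 in psy1r, 25.9, 41.05 and 51.3 in WT + PSY1, and 19.2, 24.4 and 68.4 in WT. The highest and the lowest of these values were both WT arrays, so no group stood apart on this probe. The means were -5.16 ± 0.23 in psy1r + PSY1 (SD, n = 2), -5.42 ± 0.38 in psy1r, -5.60 ± 0.32 in WT + PSY1 and -5.58 ± 0.94 in WT (SD, n = 3 each). Its other probe was well above background on only 1 of 2 psy1r + PSY1 arrays, 1 of 3 psy1r arrays, 1 of 3 WT + PSY1 arrays and 2 of 3 WT arrays. On that probe the WT + PSY1 arrays (-6.83, -7.14 and -7.32) lay below every other array, but WT + PSY1 replicate 1 nearly met WT replicate 1 (-6.82). Neither of these spots was well above background, and in signal units their order was reversed (13.9 against 12). Of all probes, 25.0% were lower without overlap in WT + PSY1 than in WT. Within each of the 4 groups, the relative levels of LECRKA4.3 and AT3G08870 were highest on slide 3, and those of LECRKA4.1 and LECRKA4.2 were so in 3 groups. A slide carried the arrays of one replicate number, so differences within a slide are given below.

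Of the 4 genes, LECRKA4.1 was the one with an adjusted p under 0.05 in the response of wild type to the peptide. Its level was 0.90 higher in WT + PSY1 than in WT on the log2 scale (SE 0.11, 95% confidence interval 0.65 to 1.16), which is 1.87-fold, with an adjusted p of 0.0300 by limma over all 36131 probes. The groups did not overlap, and the difference was 0.89, 0.85 and 0.97 on slides 1, 2 and 3. The WT arrays here also served in the comparison in which LECRKA4.1 was noticed, so this test is not independent of that choice. Calls required an adjusted p under 0.05 and a change of over 2-fold, so LECRKA4.1 was not called. None of the 4 genes was called (1 had an unadjusted p under 0.05, and the methods' t-test, an equal-variance test per probe, called 0), where 0.208% of all probes were called. At any fold, 0.288% of all probes were higher with an adjusted p under 0.05, and LECRKA4.1 was among them. Its adjusted p lay between 0.0502 and 0.153 without any one of the WT or WT + PSY1 arrays and without psy1r replicate 1 or 2, and between 0.00907 and 0.0180 without psy1r replicate 3 or either psy1r + PSY1 array, while the log2 difference stayed between 0.86 and 0.93. Blocking on slides gave an adjusted p of 0.0751 by limma, and over the other settings it ran from 5.08e-05 with array weights to 0.567 with replicates 1 and 2 averaged.

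The other LECRKA4 genes did not pass the test in wild type. LECRKA4.2 was 0.51 higher in WT + PSY1 than in WT (SE 0.39, 95% interval -0.38 to 1.40, adjusted p = 0.485 by limma), with slide differences of 0.26, 1.60 and -0.34. LECRKA4.3 differed by 0.07 (SE 0.48, interval -1.01 to 1.15, adjusted p = 0.951 by limma) and AT3G08870 by -0.02 (SE 0.43, interval -0.99 to 0.95, adjusted p = 0.984 by limma). The second probe of AT3G08870 gave -1.16 (adjusted p = 0.201 by limma) and was thus far from the brighter one. Of the 4 genes, 1 had higher values in every WT + PSY1 array than in any WT array, beside 19.4% of all probes. The median log2 difference was 0.29 over the 4 genes and -0.05 over all probes tested.

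Loss of PSY1R without peptide is the comparison in which LECRKA4.1 was noticed. It was 1.57 higher in psy1r than in WT on the log2 scale (SE 0.11), or 2.97-fold, and the slides gave 1.49, 1.45 and 1.76. LECRKA4.2 was 1.26 higher (SE 0.39), LECRKA4.3 0.53 higher (SE 0.48) and AT3G08870 0.16 higher (SE 0.43). The second probe of AT3G08870 gave -0.28 (SE 0.46). LECRKA4.1 and LECRKA4.2, which is 2 of 4, had no overlap between psy1r and WT, where 9.17% of all probes were higher without overlap. Of all probes, 0.736% were called, and no call is given here for the 4 genes. Nothing is read from these counts, since the choice of the genes used this comparison. The seed markers also differed here, with array averages from -5.51 to -4.90 in psy1r and from -6.78 to -6.01 in WT, whereas in WT + PSY1 (-6.75 to -5.96) they overlapped WT. Their part in the LECRKA4 values was not tested.

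Under the peptide, all 4 genes had higher means in the mutant, but none was called. LECRKA4.1 was 0.51 higher in psy1r + PSY1 than in WT + PSY1 (SE 0.13, 95% interval 0.23 to 0.80), or 1.43-fold, with an adjusted p of 0.0744 by limma. Both slides gave the same sign (0.61 and 0.37), and the groups did not overlap. Without replicate 3 of psy1r + PSY1 the difference was 0.58 (adjusted p = 0.141 by limma), and after the background and quantile steps of robust multi-array averaging (RMA), which the methods name, it was only 0.28 (adjusted p = 0.180 by limma). Without replicate 3 of psy1r the adjusted p was 0.0176 by limma, still under 2-fold. LECRKA4.2 was 1.05 higher (SE 0.44, interval 0.05 to 2.05, adjusted p = 0.226 by limma), without overlap, and 0.64 higher without replicate 3 of psy1r + PSY1. LECRKA4.3 differed by 0.68 (SE 0.53, interval -0.53 to 1.89, adjusted p = 0.512 by limma) and AT3G08870 by 0.44 (SE 0.48, interval -0.64 to 1.52, adjusted p = 0.642 by limma). These differences were 0.32 and 0.28 without replicate 3 of psy1r + PSY1. The second probe of AT3G08870 gave 1.27 (adjusted p = 0.211 by limma).

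In that comparison 1.04% of all probes were called and 23.0% were higher without overlap, beside 0 and 2 of the 4 LECRKA4 genes. Of the 4 genes, 2 had an unadjusted p under 0.05, and the methods' t-test called 0. The median log2 difference was 0.60 over the 4 genes and 0.00 over all probes.

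**Figure D2:**
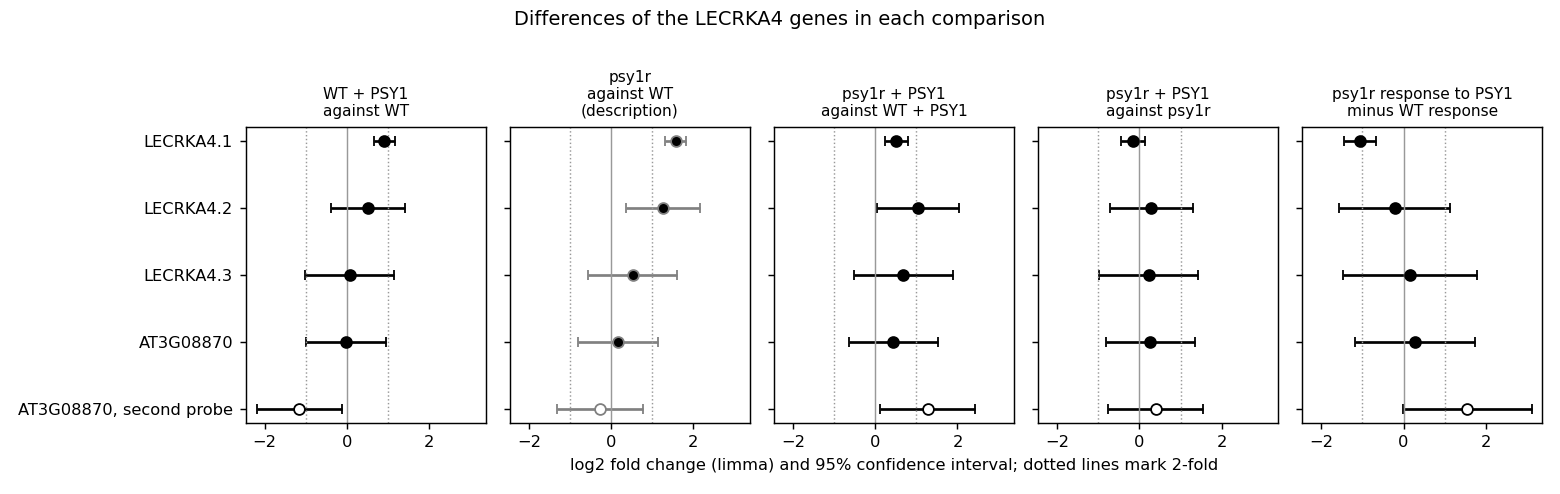
Log2 fold change (x axis, dot) with its 95% confidence interval (bar) from limma for each LECRKA4 probe in the 5 comparisons, with the descriptive psy1r against WT panel in grey and dotted lines at 2-fold. The interval of LECRKA4.1 lies above 0 for WT + PSY1 against WT and for psy1r + PSY1 against WT + PSY1, includes 0 for psy1r + PSY1 against psy1r, and lies below 0 for the difference of the responses.

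In the mutant, no response of the LECRKA4 genes to the peptide passed the test. LECRKA4.1 was 0.15 lower in psy1r + PSY1 than in psy1r, a log2 difference of -0.15 (SE 0.13, 95% interval -0.44 to 0.13, adjusted p = 1.0 by limma), with 0.01 on slide 1 and -0.43 on slide 3. With the RMA steps the difference was -0.36 (adjusted p = 0.300 by limma). Both psy1r + PSY1 arrays (11.6 and 11.6 on the RMA log2 scale) then lay below all psy1r arrays (11.9, 11.9 and 12.1). Without the RMA steps the groups overlapped for LECRKA4.1, and 7.37% of all probes were lower without overlap. That share was not computed with the RMA steps. The psy1r arrays also served in the comparison in which LECRKA4.1 was noticed as high. A lower level against them is therefore not independent of that choice. LECRKA4.2, LECRKA4.3 and AT3G08870 differed by 0.29 (SE 0.44), 0.22 (SE 0.53) and 0.26 (SE 0.48). LECRKA4.2 (-0.12) and LECRKA4.3 (-0.14) changed sign without replicate 3 of psy1r + PSY1, while AT3G08870 was 0.10 and LECRKA4.1 -0.08. None of the 4 was called (0 had an unadjusted p under 0.05, and the methods' t-test called 0), where 0.0166% of all probes were called, and none was higher without overlap, where 6.77% of all probes were.

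The responses of the lines were then compared directly, as the change in psy1r minus the change in WT. For LECRKA4.1 this difference was -1.05 on the log2 scale (SE 0.17, 95% interval -1.44 to -0.67), with -0.88 on slide 1 and -1.40 on slide 3. Its adjusted p was 0.124 by limma, so that it was not called, where 0.0581% of all probes were. It was called with the RMA steps (-1.28, adjusted p = 0.0430 by limma), with the normexp background correction (-1.24, adjusted p = 0.0176 by limma) and without replicate 1 of psy1r + PSY1 (-1.12, adjusted p = 0.0337 by limma). That last fit leaves in psy1r + PSY1 only the array with high seed markers, whose spread is assumed to be that of the other groups. Without replicate 3 of psy1r it was -0.95 (adjusted p = 0.0448 by limma), just under 2-fold. Without replicate 3 of psy1r + PSY1 it was -0.98 (adjusted p = 0.204 by limma), and over all settings tried the adjusted p ran from 0.0176 to 0.913. For LECRKA4.2 the difference was -0.22 (SE 0.59), for LECRKA4.3 0.15 (SE 0.71) and for AT3G08870 0.28 (SE 0.64), with adjusted p-values of 0.913, 0.951 and 0.893 by limma. These were -0.63, -0.21 and 0.12 without replicate 3 of psy1r + PSY1. The second probe of AT3G08870 gave 1.55 (SE 0.69, adjusted p = 0.450 by limma). The methods' t-test called 0 of the 4, and 1 had an unadjusted p under 0.05. All these comparisons share arrays with each other. The difference of the responses also holds psy1r against WT as a term, with a minus sign. LECRKA4.1 was noticed for its high value in that term. Its p-values and calls for the difference of the responses are therefore not independent of the choice.

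The rest of the family was examined in the same fits. Of 38 L-type lectin receptor kinases outside clade VI, 36 had a probe and 32 were tested. None was called by limma in any of the 5 comparisons, and between 3 and 8 had an unadjusted p under 0.05. The methods' t-test called 1 of them in WT + PSY1 against WT and 0 in the other comparisons. For WT + PSY1 against WT their median log2 difference was 0.06, beside -0.02 over all loci tested. It was 0.10 for psy1r against WT (all loci -0.03), and 0.21 (all loci -0.00) when psy1r + PSY1 was set against WT + PSY1. HLECRK, or LecRK-V.5, was 0.71 higher in psy1r than in WT (SE 0.10, adjusted p = 0.0139 by limma) and 0.61 higher in psy1r + PSY1 than in WT + PSY1 (SE 0.11, adjusted p = 0.0331 by limma, and 0.103 without replicate 3 of psy1r + PSY1), under 2-fold in both. AT5G65600, or LecRK-IX.2, was 0.89 higher in psy1r than in WT (adjusted p = 0.0223 by limma), under 2-fold, and AT3G45410, or LecRK-I.3, differed by -0.73 (adjusted p = 0.0287 by limma). AT5G65600 was called in that comparison with the RMA steps (1.0 on the log2 scale, adjusted p = 0.0453 by limma) and without WT replicate 3 (1.03, adjusted p = 0.00454 by limma). In WT + PSY1 against WT, HLECRK, AT5G65600 and AT3G45410 differed by 0.37, 0.49 and -0.43 (adjusted p = 0.0971, 0.111 and 0.112 by limma), and 19 of the 32 were higher. The means of HLECRK and AT5G65600 rose in the order WT, WT + PSY1, psy1r and psy1r + PSY1. AT2G29250, or LecRK-III.2, was well above background on all 3 WT + PSY1 arrays and on none of the 3 WT arrays, at least 10.3-fold higher against the lowest detected signal, but with an adjusted p of 0.117 by limma.

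**Figure D3:**
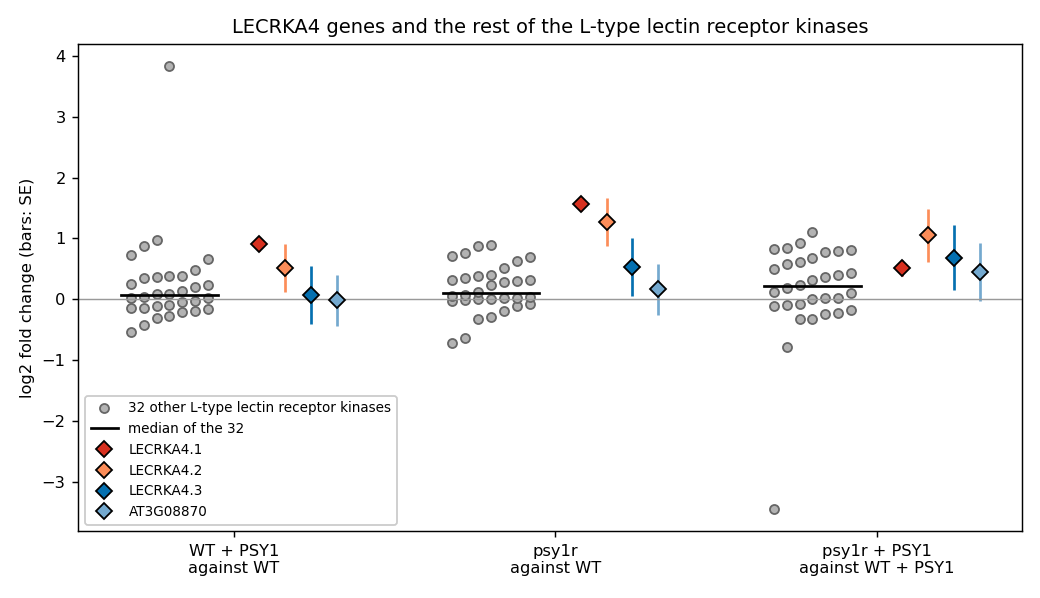
Log2 fold change (y axis) of the LECRKA4 genes (diamonds, bars for the SE) and of the 32 other L-type lectin receptor kinases tested (grey dots, black line for their median) in 3 comparisons. In psy1r against WT, which served to choose the genes, LECRKA4.1 (1.57) and LECRKA4.2 (1.26) lie above the highest of the 32 (0.89), so nothing is read from this order. Over the settings tried, which are not drawn, LECRKA4.2 was as low as 0.61 there. In WT + PSY1 against WT 2 of the 32 lie above the 0.90 of LECRKA4.1.

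None of the genes beside the tandem array passed the test. Of the 5 annotated protein-coding genes on each side, 9 were tested, and AT5G01570, which follows LECRKA4.3 and overlaps it in the annotation, had no probe. None of the 9 was called in any comparison by limma or by the methods' t-test, and the count with an unadjusted p under 0.05 was 1 in psy1r + PSY1 against WT + PSY1 and 0 in the others. In WT + PSY1 against WT they lay between -1.02 (FER1, a ferritin) and 0.35 (AT5G01590) on the log2 scale. LHCB4.1, a light-harvesting antenna protein and the gene just before LECRKA4.1, differed by 0.28 (SE 0.21, adjusted p = 0.479 by limma). In psy1r against WT the range was -0.40 to 0.40, and in psy1r + PSY1 against WT + PSY1 it was -0.84 to 0.37. AT5G01610 was the gene with the unadjusted p under 0.05 there (-0.84, SE 0.25, adjusted p = 0.119 by limma). In the same comparison AIRP2, a RING-type ubiquitin ligase with a known role in ABA responses, differed by -0.54 (SE 0.30, adjusted p = 0.347 by limma).

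**Figure D4:**
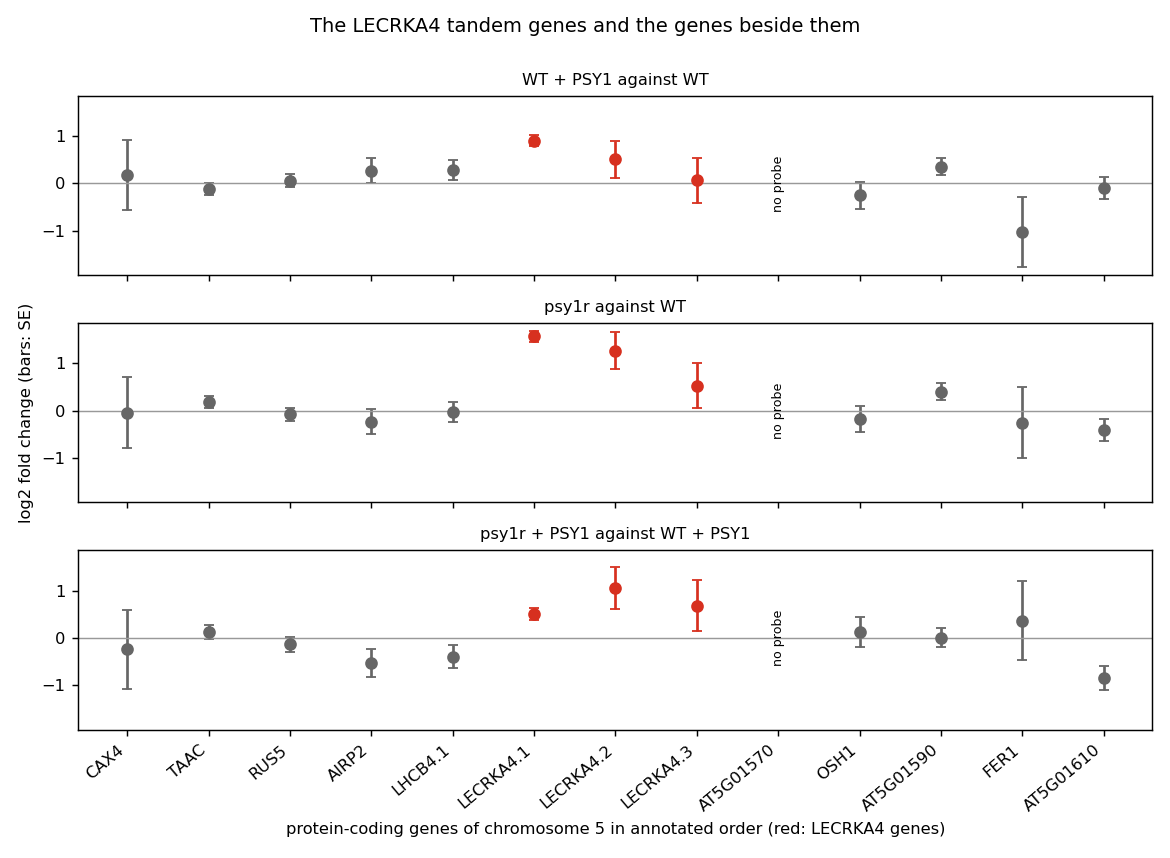
Log2 fold change with its SE (y axis) of the LECRKA4 genes of chromosome 5 (red) and of the 5 annotated protein-coding genes on each side (grey), in gene order, for 3 comparisons. The neighbours lie between -0.40 and 0.40 in psy1r against WT, where the LECRKA4 genes were chosen and lie at 1.57, 1.26 and 0.53 (SE 0.48 for the last), and between -1.02 and 0.35 in WT + PSY1 against WT.

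Genes of ABA signalling and response, the hormone pathway tied to the LECRKA4 kinases, were listed in the same way (26 genes, 24 tested). None was called by limma in the 5 comparisons, with 2 to 7 at an unadjusted p under 0.05, and the methods' t-test called 1 in WT + PSY1 against WT and 0 elsewhere. Their median log2 difference was -0.15 for the peptide in wild type and -0.15 for the mutant without peptide, and it was -0.02 when psy1r + PSY1 was set against WT + PSY1. SNRK2.3, a kinase of the ABA core pathway, was 0.90 lower in psy1r + PSY1 than in WT + PSY1, a log2 difference of -0.90 (SE 0.15, adjusted p = 0.0297 by limma), under 2-fold, and -0.69 (adjusted p = 0.100 by limma) without replicate 3 of psy1r + PSY1. COR15A, a cold- and ABA-induced chloroplast protein, differed by -1.04 in WT + PSY1 against WT (SE 0.30, adjusted p = 0.119 by limma) and by 1.42 in psy1r + PSY1 against WT + PSY1 (SE 0.34, adjusted p = 0.0715 by limma, and 0.157 without replicate 3 of psy1r + PSY1). COR15A was called in both without psy1r replicate 3 (adjusted p = 0.0157 and 0.00307 by limma), and SNRK2.3 without replicate 1 of psy1r + PSY1 (-1.10, adjusted p = 0.0147 by limma).

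Among 21 genes of pattern-triggered immunity, the other process tied to LECRKA4.1, 1 was called in each of 3 comparisons, in which 0.208%, 0.736% and 1.04% of all probes were called in the order given next. MPK3, a MAP kinase of immune signalling, rose in WT + PSY1 against WT by 1.04 on the log2 scale (SE 0.17, adjusted p = 0.0489 by limma). CYP81F2, a cytochrome P450 of indole glucosinolate synthesis, was 1.15 higher in psy1r than in WT (SE 0.16, adjusted p = 0.0154 by limma). BGL2, the pathogenesis-related glucanase, was 2.48 higher in psy1r + PSY1 than in WT + PSY1 (SE 0.42, adjusted p = 0.0297 by limma). MPK3 was still called in 3, CYP81F2 in 7 and BGL2 in 4 of the 11 fits that left out 1 array. Without replicate 3 of psy1r + PSY1 the value of BGL2 was 2.21 (adjusted p = 0.121 by limma). The methods' t-test called 1 of the 21 in the last of these comparisons and 0 in the others. No gene of the list was called in psy1r + PSY1 against psy1r or in the difference of the responses (1 and 5 at an unadjusted p under 0.05). The list's median log2 difference was 0.26 for the peptide in wild type and 0.35 for the mutant, both without and with peptide.

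The loci whose levels ran most like LECRKA4.1 over the 11 arrays were NAC016, EXO70H4 and BGLU44 (Pearson r = 0.98 each), CYP706A2 and AT5G48530 (0.97 each). NAC016 encodes a NAC transcription factor linked to senescence, and EXO70H4 a subunit of the exocyst, which tethers secretory vesicles. Relative log2 levels of EXO70H4 averaged -1.66 in psy1r + PSY1, -1.60 in psy1r, -2.12 in WT + PSY1 and -2.62 in WT. The most opposite loci were EDM2 (r = -0.97), a regulator of disease resistance gene transcripts, AT5G20820 and AT2G41870 (-0.96 each). Of the clade itself, LECRKA4.2 had r = 0.78 with LECRKA4.1, LECRKA4.3 0.49 and AT3G08870 0.26. These coefficients describe 11 arrays that share their groups and slides, and they carry no test.

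**Figure D5:**
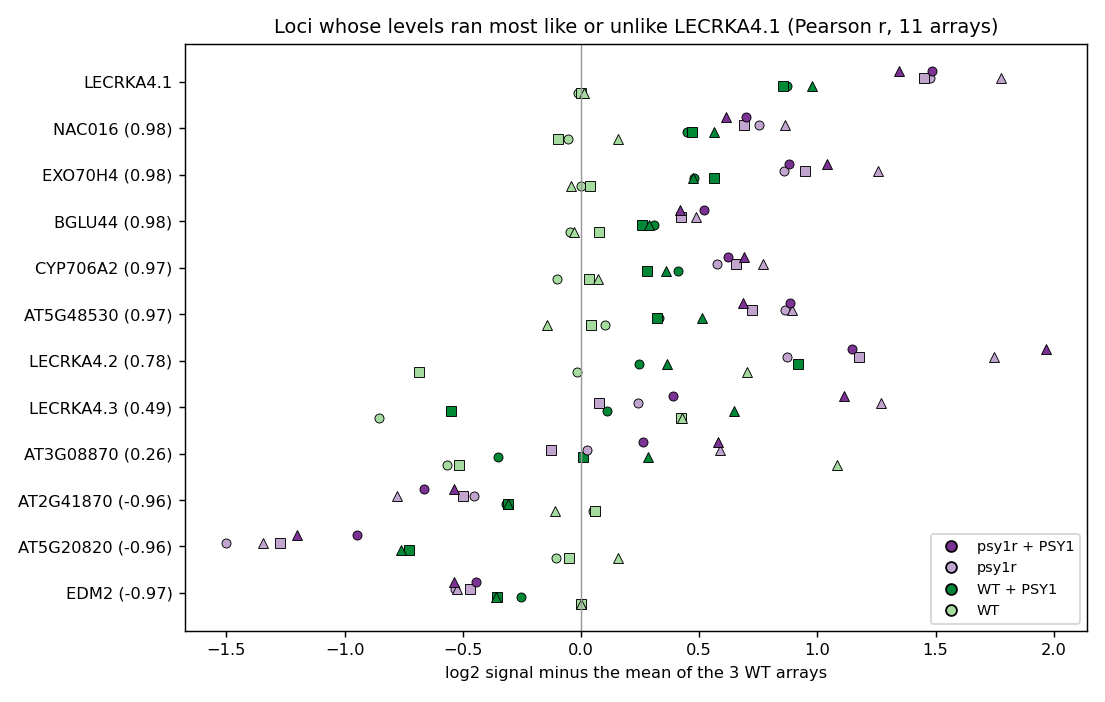
Log2 signal minus the mean of the 3 WT arrays (x axis) on each of the 11 arrays for LECRKA4.1, the 5 loci most like it, the other LECRKA4 genes and the 3 loci least like it (Pearson r in brackets, colours for groups, shapes for replicates as in the plot of values by array). In EXO70H4, as in LECRKA4.1, WT + PSY1 lies between WT and both psy1r groups.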

How the data were processed

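The deposited array files hold spot intensity from Agilent Feature Extraction 10.7.3.1, and the background-corrected processed signal of the authors' scans was used. The deposited value table holds log2 values whose processing GEO's table does not state. On each array they matched the log2 processed signals scaled to the 75th percentile and centred per probe (r of at least 0.9999), although the methods name RMA. Their scaling and direction are therefore known from this match, and they served as an alternative. The 4 genes, the lists and the rule for named genes (up to 4 listed genes with the smallest adjusted p per list and comparison, the nearest neighbours and the 5 most and 3 least similar loci) were chosen with earlier results of these data known.

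Here, log2 processed signals minus the 75th percentile of each array were fitted in R 4.3.3 with limma 3.58.1, with 4 groups and 11 arrays. Of 43603 probes, 36131 exceeded background clearly, by the scanner software's flag, on 2 or more arrays and were tested. P-values were adjusted by Benjamini-Hochberg over all of them, and a call required an adjusted p under 0.05 and over 2-fold. A locus was represented by its probe with the highest mean. The methods name a one-way analysis of variance with the same limits. Between 2 groups it equals an equal-variance t-test per probe, which is called the methods' t-test here and was run on the same values. For the difference of the responses it is the same contrast without limma's shared spread. Where a probe was not well above background on any array of a group, a fold against a floor is given. It sets the mean of the brighter group against, per array, the higher of the lowest signal well above background and the probe's own. That lowest signal is taken over all probes. Some probes with higher signals were not well above background, so the fold is not a strict bound. Fits were tested on simulated data first. Transcripts were paired with loci, names and gene order through RefSeq (TAIR10.1), and no coordinates are given because the array design uses another build. Alternatives were RMA background and quantile steps, normexp (offset 50), the deposited values, other filters, the slide as a block, array weights, replicates 1 and 2 averaged, only the groups compared, and each array left out. No sequences were used. Replicates are described as biological, but the number of arrays limits precision, and replicate 2 of psy1r + PSY1 was not analysed here.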

Additional observations from a re-analysis of the deposited data

How the results depend on the processing

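LECRKA4.1 kept its direction in every setting tried in all 5 comparisons. Among the comparisons in which the 4 genes were tested, its call changed only for the difference of the responses. For the difference of the responses, 1 of the 4 genes was called with the RMA steps (-1.28) and with normexp (-1.24), and 0 to 1 when an array was left out (-1.12 without replicate 1 of psy1r + PSY1). In psy1r against WT, the log2 difference of LECRKA4.1 ran from 1.46 to 1.63 over the settings and that of LECRKA4.2 from 0.61 to 1.62. The genes were chosen with psy1r against WT in view, so its values are a description with no test. It is also a term of the difference of the responses, whose counts are not independent of the choice.

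The other 3 genes changed sign in some settings. In WT + PSY1 against WT, AT3G08870 was 0.41 with array weights and ran from -0.30 to 0.52 when an array was left out, and LECRKA4.3 (AT5G01560) ran from -0.36 to 0.38. In psy1r + PSY1 against psy1r, leaving out an array gave -0.14 to 0.59 for AT5G01560 and -0.12 to 0.70 for LECRKA4.2 (AT5G01550). For the difference of the responses, AT5G01560 was -0.068 with replicates 1 and 2 averaged and -0.21 to 0.58 with an array left out, AT5G01550 was -0.63 to 0.20 and AT3G08870 -0.26 to 0.56. The causes were not tested.

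The count of called probes moved more than the LECRKA4 values. In WT + PSY1 against WT (75 probes) it was 22 with RMA, 28 without a filter, 172 with detection on all arrays, 1011 with array weights, 467 with only the groups compared, 265 by the methods' t-test, 0 with replicates averaged and 0 to 329 with an array left out. In psy1r against WT (266) it was 174 with normexp, 2112 with array weights, 0 with replicates averaged, 95 with only the groups compared, 11 by the t-test and 78 to 961 with an array left out. In psy1r + PSY1 against WT + PSY1 (377) it was 859 with RMA, 566 with normexp, 7 with replicates averaged, 630 with only the groups compared, 234 by the t-test and 26 to 1028 with an array left out. In psy1r + PSY1 against psy1r (6) it was 19 with RMA, 12 with normexp, 1 with detection on all arrays, 2 with array weights, 2 with replicates averaged, 0 with only the groups compared, 0 by the t-test and 2 to 113 with an array left out. For the difference of the responses (21) it was 51 with normexp, 9 without a filter, 43 with array weights, 0 with replicates averaged and 4 to 734 with an array left out.

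With the replicate number as a block, 0, 220, 114, 3 and 3 probes were called in these comparisons. Deviations of same-numbered arrays correlated between -0.15 and 0.50, above 0 in 13 of 15 pairs, against 8 of 30 pairs of different numbers. Deviations sum to 0 within a group, so these counts are not independent of each other. Between WT + PSY1 and WT the same-numbered arrays correlated at 0.08, -0.15 and 0.30. The numbers were therefore not taken as pairs, but each number is also a slide. Under the replicate block LECRKA4.1 was 0.90 in WT + PSY1 against WT (adjusted p = 0.0751 by limma), and its difference of the responses was -1.08. The low signals of LECRKA4.2 and AT3G08870 and the 2 arrays of psy1r + PSY1 limit what these comparisons can resolve.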
